A study of Oncorhynchus mykiss with 23 samples.

Results

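Fast muscle of rainbow trout (Oncorhynchus mykiss) refed for 11 days (RF11, 5 fish) was compared with that of trout refed for 4 days (RF4, 5 fish), which makes 10 of the 23 arrays of a feeding experiment. Both groups had first been fasted for 30 days and were then given a ration above the normal one, so that the comparison covers 1 week of refeeding in the same tank. The other groups were trout sampled at the end of the 30-day fast (F0, 5 fish), trout refed for 36 days (RF36, 4 fish) and trout that were fed throughout in a tank of their own and sampled at day 30 (C0, 4 fish). The Results text of the study gives another length of fast for the refed trout than its Methods and labels do. The fish were about a year old, of a spring strain, and each array holds the RNA of 1 fish, taken from a transverse slice of fast muscle beneath the dorsal fin. A slice holds fibres together with vessels, connective tissue and blood, and fewer cells of a type cannot be told apart from less RNA per cell in such samples. Of 60058 probes with a value on all arrays, 32920 were well above background on 4 or more arrays of RF4 or RF11 and were tested.

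Fast muscle fibres shrink in a starved fish because protein is broken down by the ubiquitin-proteasome system and by autophagy, in which lysosomes digest parts of the cell, and because protein synthesis is held back. Feeding reverses this through insulin and nutrient signals that act on the kinase complex mTORC1, which releases the cap-binding factor eIF4E from its binding proteins and starts translation. In growing trout, satellite cells, the stem cells of muscle, also divide and add nuclei to growing myofibres or form new ones, and new contractile filaments are built from actin, myosin, troponin and their partners. All levels below are log2 signals relative to the 75th percentile of their array, so that a difference of 1 is a doubling, and all differences are RF11 minus RF4 with the standard error (SE) of the limma model. A probe was called changed where its limma p, adjusted over all 32920 probes by the Benjamini-Hochberg procedure, was under 0.05, and every adjusted p below comes from that test unless another is named.

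The arrays of RF4 and RF11 were of like quality, with 51.2 to 59.5% of probes well above background in RF4 and 49.2 to 63.6% in RF11, and both groups lay on each of the 3 slides. On the first principal component of the 10 arrays, which held 23.1% of the variance, all RF4 fish had scores above 0 and 4 of the RF11 fish had scores below 0, while fish RF11-4 lay among the RF4 fish. Gene names come from the probe names of the scanner output and from the part of the study's heat map file read here, 648 named genes in all, and most probes are named after the protein of another species that they resemble. The heat map lists probes that the study had selected because they differed across these same fish, so that a named gene was more likely to be called than an unnamed probe. Of the named genes, 17.7% were called (115, of which 70 were higher and 45 lower), against 2.12% of all probes. Counts of named genes below are to be read against these shares, 10.8% higher and 6.94% lower. The named genes are an uneven part of the study's genes. Its lists of extracellular matrix and cell division had 23 of 27 and 21 of 32 members named on the array. Those of ribosome biogenesis, translation and protein folding had only 2 of 57, 4 of 53 and 3 of 47. Where the probes of a gene are counted one by one, the shares over all 895 named probes were 17.5% called, 10.5% higher and 7.04% lower.

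Between days 4 and 11 of refeeding, 698 probes (2.12%) changed, of which 427 (1.3%) were higher and 271 (0.823%) lower in RF11. The median change among them was 1.99-fold and the range 1.41-fold to 10.8-fold. A difference of at least 2-fold was found for 345 (1.05%), of which 207 (0.629%) rose and 138 (0.419%) fell. In 612 of the 698, no RF4 fish overlapped any RF11 fish, and over all tested probes 2098 (6.37%) had groups that did not overlap, 1126 (3.42%) with RF11 above RF4 and 972 (2.95%) with RF11 below. Almost all of the called probes, 697, had the same direction on each of the 3 slides, the exception being 1 probe on slide 2. These are the same arrays that gave the calls, so the agreement is no independent support. On slide 2, RF4-3 was the only RF4 fish, and on slide 3, RF11-5 was the only RF11 fish. The median difference over all tested probes was 0.00. The number of calls fell when 1 fish was left out, to 456 without RF11-1, 322 without RF11-2, 372 without RF11-5, 350 without RF11-6, 327 without RF4-2, 301 without RF4-3 and 372 without RF4-4, and it was 213 (163 higher and 50 lower) with arrays scaled to their median. Without the control fish C0-1, which enters only through the shared spread, it was 1086. With only RF4 and RF11 in the model and the slide as a block it was 415. Of the 44 called genes picked by the rules given at the end, 15 were then not called. Among these, described below, were SPC25 (adjusted p = 0.058), TXNIP (0.054), TSC2 (0.065), TRIM63 (0.077), SCML2 (0.051), NLRC3 (0.051), RPS18 (0.096) and CCNB1 (0.092). TXNIP was also lost with arrays scaled to their median (0.0502).

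**Figure D1:**
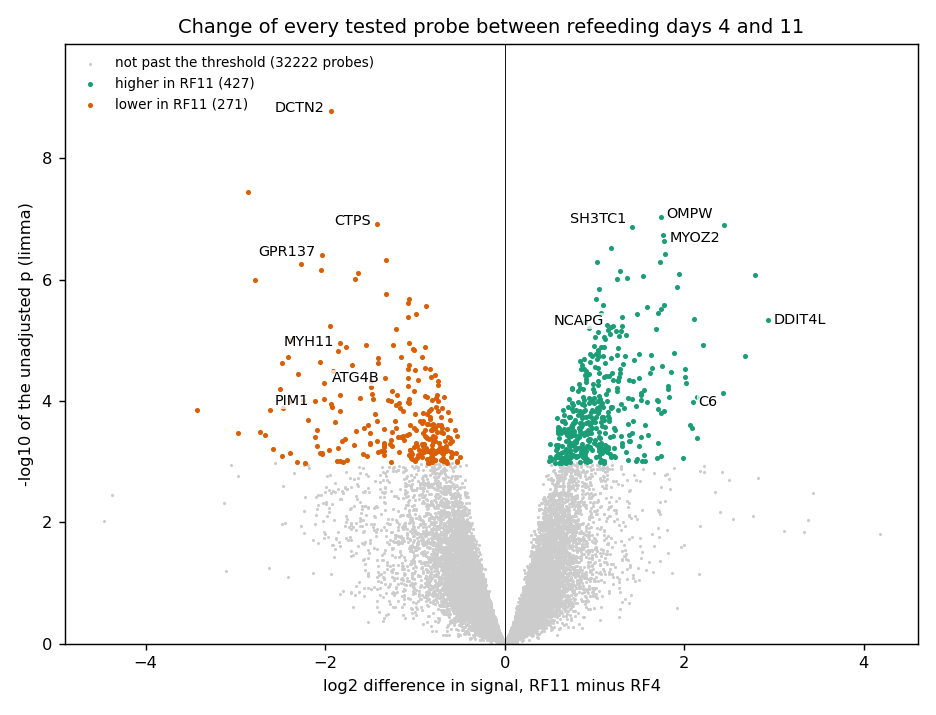
Every tested probe, by its log2 difference between RF11 and RF4 (horizontal axis) and the −log10 of its unadjusted limma p (vertical axis), with the 427 higher and 271 lower probes in colour. DCTN2 has the smallest p and DDIT4L the largest rise among the labelled genes.

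Of the genes of the contractile fibre, 4 of the 8 measured of a list of 11 taken from the study rose and none fell. The other 4 did not pass the test, and all 8 had a difference above 0, with a median of 0.93. The list was chosen by the study on these samples and is no independent evidence of its direction. Its mean level in single fish was 5.14 to 5.46 in RF4 and 6.08 to 6.58 in RF11, without overlap.

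The Z-disc protein myozenin-2 (MYOZ2), which ties calcineurin to the ends of the sarcomere, read 0.86, 0.96, 0.99, 1.33 and 1.58 in the RF4 fish and 2.68, 2.70, 2.84, 3.08 and 3.31 in the RF11 fish. This was a 3.43-fold rise (1.78 ± 0.24, adjusted p = 0.000957). MYOZ2 is also among the rises picked for having no overlap, so its lack of overlap is no result about it. Troponin C of fast muscle (TNNC2), the calcium sensor of the thin filament, read 7.33, 7.63, 7.71, 8.19 and 8.20 in RF4 and 8.78, 8.82, 8.84, 9.28 and 9.61 in RF11. Its rise was 2.38-fold (1.25 ± 0.26, adjusted p = 0.013), and the groups did not overlap either. A myosin light chain (MYL3, named after a skeletal muscle isoform of mullet) read 7.44 to 8.24 with a median of 7.95 in RF4 and 8.76 to 9.16 with a median of 9.07 in RF11, a rise of 1.09 ± 0.24 (adjusted p = 0.0211). Myosin-binding protein H (MYBPH), a thick filament protein, rose by 0.98 ± 0.20 (adjusted p = 0.0124), from 6.01 to 6.57 in RF4 to 7.03 to 7.55 in RF11. MYOZ2, TNNC2 and MYBPH stayed called whichever fish was left out, and MYL3 did not without RF11-5, RF4-2 or RF4-3 (adjusted p = 0.053 to 0.067).

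The rise extended to the probes named as actins, which form the thin filament. This group of probes was chosen after its values were seen. Of 32 such probes, named after actins of many species, 25 rose and none fell, with a median difference of 1.05 and a range of 0.26 to 2.08. In 30 of them the RF11 fish all lay above the RF4 fish. Near-identical actin genes may share probes here, so these probes are not separate genes.

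The probe named after frog sarcomeric alpha-actin (ACTA) read 4.49, 4.83, 5.32, 5.63 and 5.82 in RF4 and 6.69, 6.78, 6.83, 6.97 and 7.25 in RF11, a 3.22-fold rise (1.68 ± 0.29, adjusted p = 0.00407). A probe named after fly Actin-42A (ACT42A) rose 2.82-fold (1.50 ± 0.29, adjusted p = 0.00985), from 1.84 to 2.57 in RF4 to 3.65 to 4.29 in RF11. Skeletal alpha-actin itself (ACTA1) had 6 probes, and 5 of them rose, by 0.92 to 1.71. Its brightest probe differed by 0.73 ± 0.21 and was not called (adjusted p = 0.0656), although its groups did not overlap. The count of actin probes called changed with single fish. It was 14 without RF11-1, 15 without RF11-2, 13 without RF11-4, 8 without RF11-5, 7 without RF4-2 or RF4-3 and 11 without RF4-4. It was 10 without the filter on dim probes, 12 with arrays scaled to their median and 15 with quantile normalization.

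Parvalbumin (PVALB), the calcium buffer of fast fibres, rose on all 6 of its probes by 1.23 to 1.71. The brightest read 7.29, 8.13, 8.14, 8.24 and 8.78 in RF4 and 8.88, 9.07, 9.34, 9.66 and 9.78 in RF11, a 2.35-fold rise (1.23 ± 0.32, adjusted p = 0.0443). RF4-4 was the lowest fish and the groups just failed to meet. The call of that probe was lost without any 1 fish other than RF4-7 (adjusted p up to 0.13). The probe CUST_20722_PI425536763, also named parvalbumin, kept its call in each case (highest adjusted p = 0.0473). The count of 6 was 1 without RF4-3 or RF4-4, 2 without RF11-1, RF11-2, RF11-4, RF11-5 or RF4-2 and 3 without RF11-6, and it was 1 with arrays scaled to their median and 2 without the filter on dim probes. A dim probe named after chicken thymic parvalbumin, TC105396, differed by −0.08 ± 0.26 and was not called (adjusted p = 0.965).

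As a check of the tissue, 4 of 13 markers of fast fibres were measured by name (PVALB, TNNC2, ACTA1 and CKM). TNNC2 and PVALB rose and none fell, and CKM differed by −0.10 (adjusted p = 0.929). The mean level of the 4 was 7.68 to 8.53 in RF4 and 8.54 to 9.12 in RF11. PVALB, TNNC2 and ACTA1 are genes described above, so this level does not measure the share of fast fibres apart from them. No marker of slow fibres, red blood cells, skin or nerve was named among the tested probes, so the share of these tissues in a slice was not measured. Of the endothelial markers KDR, CLEC14A and CLDN5 none was called, and their mean level overlapped (RF4 −1.38 to −0.72, RF11 −1.64 to −1.07). CYBB, the only leukocyte marker measured of 15, differed by 0.33 ± 0.32 (adjusted p = 0.764). Among 4 of 8 fibroblast markers, POSTN rose on the brighter of its 2 probes, and their mean level was 4.12 to 5.07 in RF4 and 4.53 to 5.43 in RF11. The marker DCN, named after its values were seen, was not called on its brightest probe (0.16, adjusted p = 0.878). Another of its 4 probes rose by 1.33 (adjusted p = 0.0174).

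**Figure D2:**
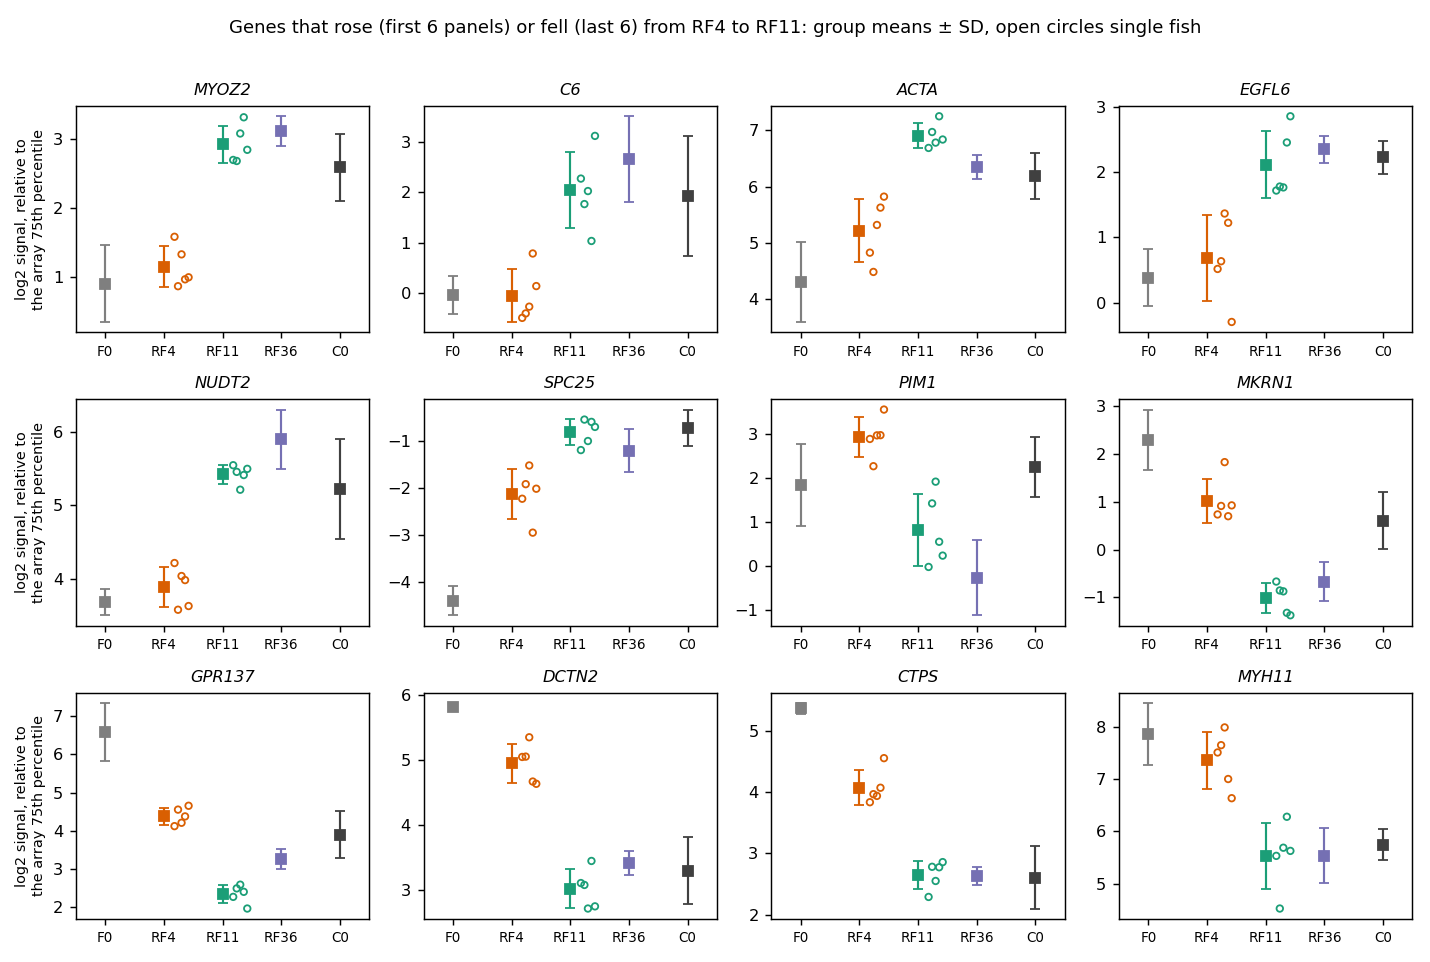
Log2 signal relative to the array's 75th percentile of 12 genes in the 5 feeding groups, as means ± SD (squares, n = 4 or 5) with the single RF4 and RF11 fish as open circles. The RF11 fish lie above the RF4 fish in the first 6 panels and below them in the last 6, without overlap. All 12 are among the rises and falls that were picked for having no overlap.

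Few genes of cell division passed the test. Of 20 measured of the study's list of 32, 3 rose, 1 fell and 16 did not pass, a share near that of all named genes, while 18 had differences above 0 and the median was 0.83. This list too was chosen by the study on these fish and is no independent evidence of its direction. In a further list of 11 measured mitosis genes, 2 rose, 9 did not pass, and all 11 differences were above 0, with a median of 0.80. The mean level of the first list was −0.80 to −0.18 in the RF4 fish and −0.07 to 0.29 in the RF11 fish, and that of the second was −2.05 to −1.15 and −0.97 to −0.55, so neither overlapped. The member that fell, PIM1, is a kinase of growth signalling and not part of the mitotic machinery.

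The condensin subunit NCAPG, which compacts chromosomes for mitosis, read −0.60, −0.41, −0.27, −0.21 and −0.10 in RF4 and 0.26, 0.66, 0.98, 1.01 and 1.39 in RF11. Every RF11 fish was above every RF4 fish (2.27-fold, 1.18 ± 0.20, adjusted p = 0.00403), and its other probe rose too. SPC25, a subunit of the kinetochore complex that holds chromosomes to the spindle, read −2.96, −2.23, −2.02, −1.92 and −1.53 in RF4 and −1.20 to −0.55 with a median of −0.70 in RF11. It rose 2.50-fold (1.32 ± 0.25, adjusted p = 0.00758). Both genes kept their call whichever fish was left out.

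Cyclin B1 (CCNB1), which drives entry into mitosis, rose by 1.01 ± 0.24 (adjusted p = 0.0259), from −0.30 to 1.05 in RF4 to 1.09 to 1.71 in RF11. Securin (PTTG1), which holds sister chromatids together until anaphase, rose by 0.83 ± 0.19 (adjusted p = 0.026), and RF4-4, at −0.24, just overlapped the lowest RF11 fish at −0.25. The spindle pole protein ASPM rose by 1.74 ± 0.45 (adjusted p = 0.0432), with RF4-5 at −4.48 far below the other RF4 fish, at −2.40 to −1.08. These 3 calls were the least stable of the group. CCNB1 was lost without RF11-2, RF11-5, RF4-2, RF4-5 or RF4-7 (adjusted p = 0.052 to 0.070), PTTG1 without any 1 fish but RF11-4, RF11-6 or RF4-4 (0.052 to 0.073) and ASPM without any 1 fish but RF11-4 or RF4-4 (0.061 to 0.10), so that the first list had only 1 higher member without RF11-2, RF11-5, RF4-2, RF4-5 or RF4-7.

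Of the genes of DNA replication, none of 3 measured was called: DUT, which clears dUTP, differed by 0.54 ± 0.17 (adjusted p = 0.107), thymidine kinase TK1 by 0.56 ± 0.24 (0.264) and the helicase factor CDC45 by −1.11 ± 0.40 (0.16). The difference between this list and the 5 called mitosis genes was not tested.

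**Figure D3:**
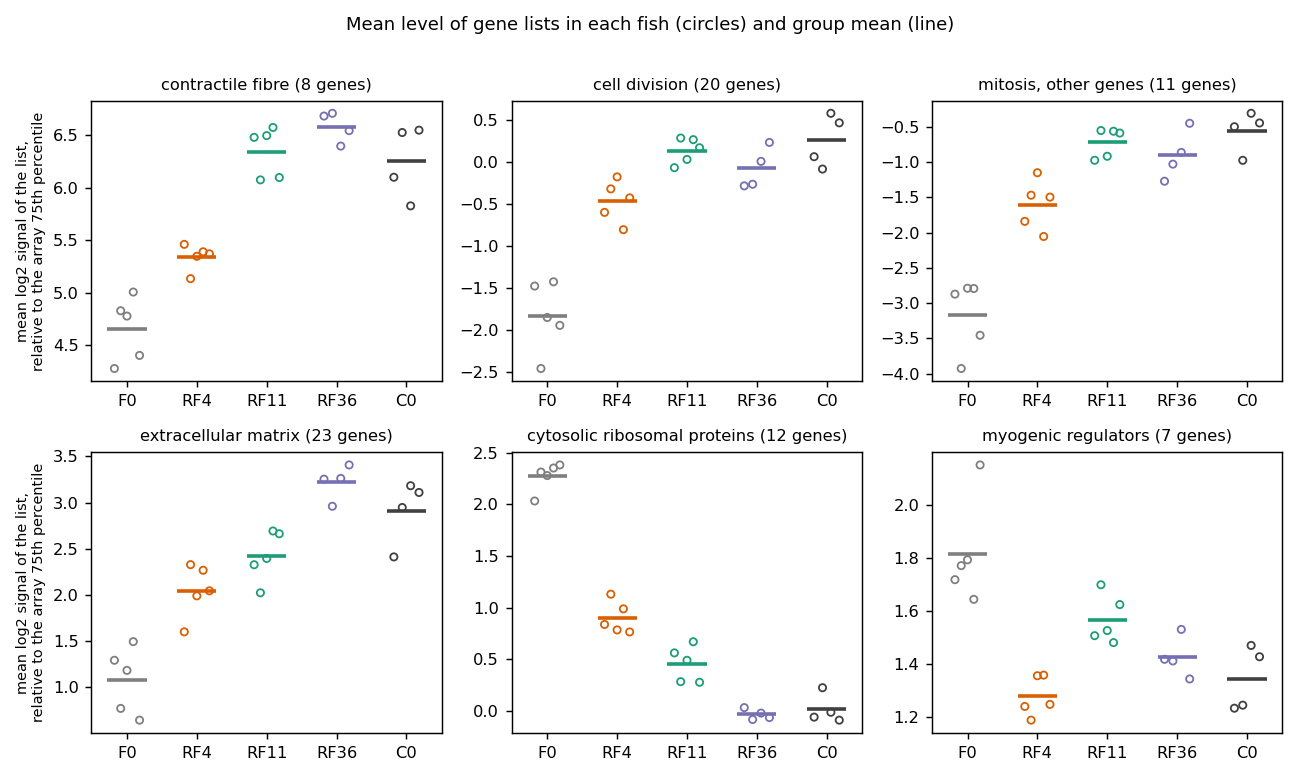
Mean log2 signal of the measured genes of 6 lists in each fish (circles) with the group mean (line), for the 5 feeding groups. RF4 and RF11 do not overlap for contractile fibre, cell division, mitosis, ribosomal protein and myogenic genes, and they overlap for extracellular matrix genes. The ribosomal protein mean includes RPS18, which was mostly not measured in RF11.

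Most genes of the extracellular matrix moved little between these days. Of 23 measured of the study's 27, 20 had a difference above 0, the median was 0.31, and 1 rose. This was periostin (POSTN), a matrix protein of connective tissue and repair, which read 0.29, 0.63, 1.27, 1.37 and 1.61 in RF4 and 1.73, 1.97, 2.01, 2.15 and 2.54 in RF11 (2.07-fold, 1.05 ± 0.27, adjusted p = 0.0401). Its call was lost without any 1 fish but RF4-5 or RF4-7 (adjusted p = 0.054 to 0.12), and its other probe differed by 0.34 and was not called (adjusted p = 0.579). The mean level of the list was 1.60 to 2.33 in RF4 and 2.02 to 2.69 in RF11, which overlap. The small proteoglycans osteoglycin (OGN, 0.25 ± 0.17, adjusted p = 0.575) and keratocan (KERA, 0.58 ± 0.17, adjusted p = 0.074) were not called.

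Outside that list, EGFL6, a secreted matrix protein with EGF-like repeats, read −0.30, 0.52, 0.63, 1.22 and 1.37 in RF4 and 1.72, 1.76, 1.78, 2.45 and 2.85 in RF11, a 2.68-fold rise (1.42 ± 0.28, adjusted p = 0.0102). Complement component C6, part of the pore that complement builds in target membranes, read −0.50, −0.41, −0.28, 0.13 and 0.78 in RF4 and 1.03, 1.77, 2.03, 2.27 and 3.12 in RF11, a 4.28-fold rise (2.10 ± 0.45, adjusted p = 0.0155). Its difference was 2.88 on slide 1, 2.31 on slide 2 and 0.78 on slide 3, and without RF11-6, the highest fish, the adjusted p was 0.050.

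The remaining named risers have no shared role. NUDT2, an enzyme that hydrolyses diadenosine tetraphosphate, read 3.57, 3.62, 3.98, 4.03 and 4.21 in RF4 and 5.21, 5.41, 5.46, 5.50 and 5.55 in RF11 (2.91-fold, 1.54 ± 0.23, adjusted p = 0.00134), and its 2 other probes rose as well. SH3TC1, a protein with an SH3 domain and tetratricopeptide repeats, rose 2.67-fold (1.42 ± 0.19, adjusted p = 0.000752), from 5.45 to 6.31 in RF4 to 7.02 to 7.32 in RF11. NO66, a lysine demethylase, rose 2.58-fold (1.37 ± 0.20, adjusted p = 0.00134), from 2.06 to 2.58 to 3.41 to 3.80. Each of these was called in every setting tried. SCML2, a Polycomb group protein, rose 3.11-fold (1.64 ± 0.31, adjusted p = 0.00821), from 2.23 to 4.12 in RF4 to 4.32 to 5.02 in RF11. A probe that carries the name of a bacterial outer membrane protein (OMPW) rose 3.35-fold (1.74 ± 0.22, adjusted p = 0.000752), from −1.03 to −0.58 to 0.63 to 1.32, and which trout gene it measures is not known from that name.

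The genes of growth and nutrient signalling split. Of 10 measured, 1 rose and 3 fell, and the median difference was −0.02. The member that rose was EIF4EBP3L, a binding protein that keeps eIF4E from starting translation. It read 2.27, 2.30, 2.34, 2.62 and 2.86 in RF4 and 3.39, 3.45, 3.51, 3.62 and 3.67 in RF11 (2.07-fold, 1.05 ± 0.20, adjusted p = 0.00897). Its mean was 5.21 in F0, 3.14 in RF36 and 4.56 in C0, so RF4 was the group with the lowest mean.

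The cap-binding factor eIF4E itself (EIF4E, in the translation list, where 1 of 4 measured rose) read 1.16, 1.23, 1.23, 1.39 and 1.49 in RF4 and 1.94, 2.12, 2.23, 2.44 and 2.46 in RF11. This was a 1.92-fold rise (0.94 ± 0.20, adjusted p = 0.0149), and its group means ran from −0.83 in F0 to 2.85 in RF36, with 1.85 in C0. Tuberin (TSC2), which inhibits mTORC1, fell by 1.01 on the log2 scale (SE 0.21, adjusted p = 0.013), from −0.14 to 0.85 in RF4 to −0.90 to −0.48 in RF11. The inhibitor that binds eIF4E and eIF4E itself thus rose over the same days, and an inhibitor of mTORC1 fell. All 3 kept their call without each fish in turn.

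The kinase PIM1, which promotes survival and growth, read 2.27, 2.89, 2.97, 2.98 and 3.56 in RF4 and −0.02, 0.24, 0.56, 1.43 and 1.92 in RF11. It was the named gene with the largest fall, 4.31-fold (−2.11 ± 0.45, adjusted p = 0.0153), and the next probe fell by 2.25 on the log2 scale. Another probe named PIM1 differed by 0.46 and was not called (adjusted p = 0.36), so the probes do not all measure the same transcript level. Within slides the fall of PIM1 was 3.11 on slide 1, 0.60 on slide 2 and 2.42 on slide 3, all in the same direction.

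TXNIP, which binds thioredoxin and limits glucose uptake, read 2.46, 2.52, 2.90, 3.02 and 3.40 in RF4 and 0.52, 1.26, 1.43, 1.79 and 1.88 in RF11 (2.80-fold lower, −1.49 ± 0.30, adjusted p = 0.012). Its means were 2.89 in F0, 2.86 in RF4, 1.37 in RF11 and 1.09 in RF36. The level of TXNIP at day 4 of refeeding was thus close to that of the fasted fish, and that at day 11 was not.

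DDIT4L, an inhibitor of mTORC1 that is induced by stress, was chosen after its values were seen, since its 2 probes differ. One rose more than any other named probe, 7.66-fold (2.94 ± 0.49, adjusted p = 0.00346), from −2.78, −2.05, −1.47, −1.27 and −0.96 in RF4 to 0.83, 1.07, 1.21, 1.42 and 1.64 in RF11. The other differed by 0.67 ± 0.29 and was not called (adjusted p = 0.277). Their profiles over the study also differed, with a mean in F0 of −0.73 on the first and 3.18 on the second, and the first kept its call without each fish.

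**Figure D4:**
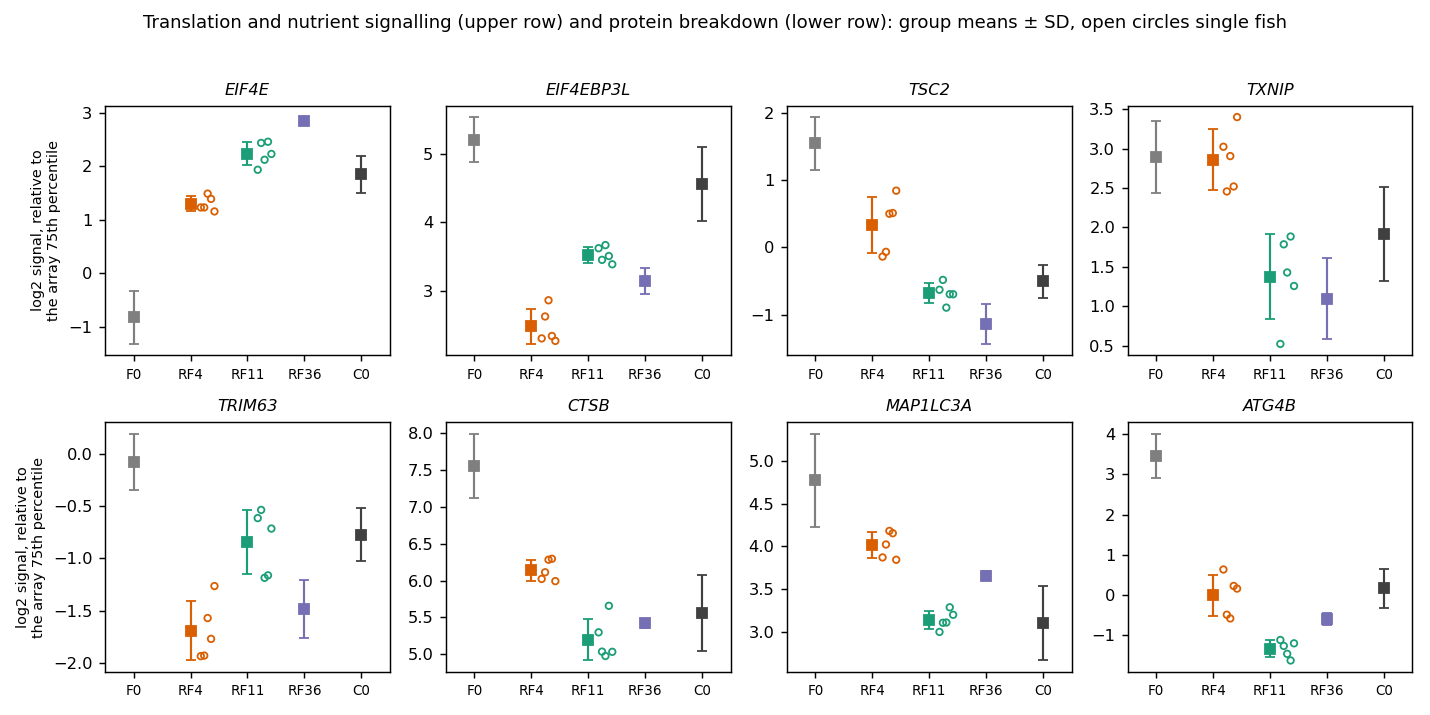
Log2 signal relative to the array's 75th percentile of 4 genes of translation and nutrient signalling and 4 genes of protein breakdown in the 5 feeding groups, as means ± SD (squares, n = 4 or 5) with the single RF4 and RF11 fish as open circles. EIF4E, EIF4EBP3L and TRIM63 are higher in RF11 than in RF4, and TSC2, TXNIP, CTSB, MAP1LC3A and ATG4B are lower.

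Called genes of protein breakdown moved in both directions. Of 12 measured of the list of proteolysis and atrophy, 1 rose and 2 fell (median −0.44), with 10 differences below 0 and 2 above. Of 13 of autophagy, 3 fell and none rose (median 0.20), with 5 differences below 0 and 8 above. The median of the autophagy list thus has the other sign than its called members. The atrophy marker atrogin-1 (FBXO32) had 2 probes, which were not bright enough to be tested.

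Cathepsin B (CTSB), a protease of lysosomes, read 5.99, 6.02, 6.11, 6.28 and 6.30 in RF4 and 4.98, 5.03, 5.04, 5.30 and 5.66 in RF11 (1.92-fold lower, −0.94 ± 0.21, adjusted p = 0.0228). Its other probe differed by −0.31 and was not called (adjusted p = 0.665). RNF25, a ubiquitin ligase, fell by 0.76 on the log2 scale (SE 0.16, adjusted p = 0.0172), from 2.68 to 2.95 to 1.76 to 2.27. TRIM63 (MuRF1), the ubiquitin ligase that marks myofibrillar proteins in atrophy, went the other way. It read −1.93, −1.93, −1.77, −1.57 and −1.27 in RF4 and −1.19, −1.16, −0.72, −0.62 and −0.54 in RF11, a 1.80-fold rise (0.85 ± 0.19, adjusted p = 0.0187). Its mean was −0.08 in F0, −1.69 in RF4, −0.84 in RF11, −1.48 in RF36 and −0.77 in C0, so that RF4 held its lowest mean. Without single fish the calls were lost for CTSB (RF11-2, RF11-6, RF4-3 or RF4-4, adjusted p = 0.051 to 0.061), TRIM63 (RF11-2, RF11-6, RF4-2 or RF4-3, 0.051 to 0.060) and RNF25 (RF11-6 or RF4-3, 0.050 and 0.053), and CTSB and RNF25 were not called with arrays scaled to their median (0.19 and 0.25).

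ATG4B, the protease that trims LC3 before it is attached to the autophagosome membrane, read −0.59, −0.50, 0.15, 0.22 and 0.63 in RF4 and −1.64, −1.47, −1.28, −1.21 and −1.13 in RF11 (2.51-fold lower, −1.33 ± 0.26, adjusted p = 0.00977). LC3 itself (MAP1LC3A) fell by 0.87 on the log2 scale (SE 0.21, adjusted p = 0.0306), from 3.84 to 4.18 to 3.00 to 3.29. BNIP3L, a receptor for the removal of mitochondria, fell by 0.82 (SE 0.19, adjusted p = 0.0271), and RF11-1, at 1.59, lay within the range of RF4. The receptor SQSTM1 differed by 0.20 ± 0.20 (adjusted p = 0.764). MAP1LC3A was not called without any 1 fish but RF4-7 (adjusted p = 0.052 to 0.078) and BNIP3L not without RF11-2, RF11-4, RF11-5, RF4-4, RF4-5 or RF4-7 (0.052 to 0.082), while ATG4B kept its call in these and lost it with arrays scaled to their median (0.060). With that scaling no autophagy gene was called.

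The falls with the smallest p were in genes of other roles. DCTN2, the dynamitin subunit of the dynein motor's partner dynactin, read 4.64, 4.67, 5.05, 5.06 and 5.35 in RF4 and 2.71, 2.75, 3.08, 3.11 and 3.45 in RF11 (3.82-fold lower, −1.94 ± 0.20, adjusted p = 5.41e-05). GPR137, a multi-pass membrane protein, read 4.12, 4.21, 4.38, 4.56 and 4.66 in RF4 and 1.97, 2.27, 2.40, 2.49 and 2.59 in RF11 (4.11-fold lower, −2.04 ± 0.29, adjusted p = 0.00116), while its dimmer second probe was not called (adjusted p = 0.482). The ubiquitin ligase makorin-1 (MKRN1) read 0.70, 0.74, 0.91, 0.93 and 1.83 in RF4 and −1.38, −1.33, −0.88, −0.86 and −0.67 in RF11 (4.12-fold lower, −2.04 ± 0.30, adjusted p = 0.00134). Groups without overlap were a condition for naming these 3 genes, so the lack of overlap is no result about them. None of the 3 lost its call in any setting tried. CTP synthase (CTPS), which makes the nucleotide CTP, read 3.84, 3.94, 3.97, 4.07 and 4.56 in RF4 and 2.29, 2.55, 2.77, 2.78 and 2.86 in RF11 (2.69-fold lower, −1.43 ± 0.19, adjusted p = 0.000752). It was the only one of 7 genes of serine, one-carbon and nucleotide synthesis that was called.

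A probe named after mouse smooth muscle myosin heavy chain (MYH11) read 6.64, 7.00, 7.51, 7.65 and 7.99 in RF4 and 4.52, 5.53, 5.63, 5.69 and 6.28 in RF11 (3.56-fold lower, −1.83 ± 0.32, adjusted p = 0.00547). Myosin heavy chains are alike, and which trout myosin this probe measures is not known from its name. A probe named NLRC3, of a family of immune receptors with many copies in fish, fell 4.03-fold (−2.01 ± 0.40, adjusted p = 0.0108), from 1.33 to 2.52 to −1.14 to 0.78. The copies cannot be told apart by that name. NDUFS1, a subunit of respiratory complex I, fell 2.80-fold (−1.48 ± 0.29, adjusted p = 0.0103), from −1.15 to −0.14 to −2.74 to −1.54, and was the only one called of 4 measured respiratory chain genes. Retinol dehydrogenase RDH3 fell 2.72-fold (−1.44 ± 0.32, adjusted p = 0.0191) on the named probe and on its other probe. The phosphatase MDP1 fell 2.55-fold (−1.35 ± 0.35, adjusted p = 0.0432). RDH3 lost its call without RF11-1, RF11-6, RF4-3 or RF4-4 (adjusted p = 0.055 to 0.061) and MDP1 without each of the 10 fish (0.067 to 0.11).

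Of the cytosolic ribosomal proteins, 12 were measured and 1 was called, lower, with a median of −0.37 over the list. The mean level of the 12 was 0.76 to 1.13 in the RF4 fish and 0.28 to 0.67 in the RF11 fish, without overlap. The other 11 genes did not pass the test. The called probe carries the name of a fly ribosomal protein (RPS18) and was well above background on only 2 RF11 arrays, so that it passed the filter through RF4 alone and its level in RF11 is mostly not measured. It read −1.83 to −0.95 in RF4 and −4.57 to −2.02 in RF11 (adjusted p = 0.00774). The mean level of the 12 includes this probe, so part of the fall of that mean comes from it. The mean without it was not computed.

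Most transcription factors of the muscle lineage did not pass the test. Of 7 measured myogenic regulators 1 rose, 6 had a difference above 0, and the median difference was 0.41. Their mean level was 1.19 to 1.36 in RF4 and 1.48 to 1.70 in RF11, which do not overlap, beside 1.64 to 2.15 in F0. Myogenin (MYOG), which turns dividing myoblasts to fusion and differentiation, read −0.57, −0.40, −0.39, −0.28 and −0.07 in RF4 and 0.04, 0.16, 0.18, 0.40 and 0.47 in RF11 (1.51-fold, 0.59 ± 0.15, adjusted p = 0.0359). It was not called without any 1 fish but RF11-4 or RF4-4 (adjusted p = 0.062 to 0.098). With only RF4 and RF11 in the model MYOG was not called either (adjusted p = 0.052), and the list then had 0 members higher and 1 lower. The related factors MYF6 (0.77 ± 0.22, adjusted p = 0.067), MYF5 (0.57 ± 0.19, 0.126) and MYOD1 (0.41 ± 0.22, 0.427) were not called, nor were the repressor HES6 (0.22 ± 0.16, 0.596) and the methyltransferase SETDB1 (0.14 ± 0.19, 0.866). PAX7, the mark of satellite cells, had 1 probe, which was too dim to be tested.

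Among 3 measured genes of sterol and fatty acid synthesis SC5D, the lathosterol oxidase of cholesterol synthesis, rose 1.69-fold (0.76 ± 0.19, adjusted p = 0.0363), from 3.85 to 4.36 in RF4 to 4.61 to 5.34 in RF11. Without RF11-2, RF11-5, RF11-6, RF4-2, RF4-3, RF4-5 or RF4-7 it was not called (adjusted p = 0.060 to 0.10). No gene was called among 11 of fatty acid oxidation (median −0.30), 4 of glycolysis and glycogen (0.38), 7 heat shock proteins (−0.19), 3 of protein folding (−0.19), 2 of ribosome biogenesis (−0.35), 1 of the proteasome (−0.26) and 1 chromatin modifier (0.14). The cytosolic chaperones HSP90AA1 (−0.55 ± 0.16, adjusted p = 0.067) and HSP90AB1 (−0.53 ± 0.16, 0.093) came nearest to the threshold. The other HSP90AA1 probe differed by −0.10 (adjusted p = 0.938), and the 5 HSP90AB1 probes ranged from −0.53 to 0.13, with 2 above 0. Ribosome biogenesis had only 2 named genes of a list of 57 in the material read here, translation 4 of 53 and protein folding 3 of 47. These lists were hardly measured.

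**Figure D5:**
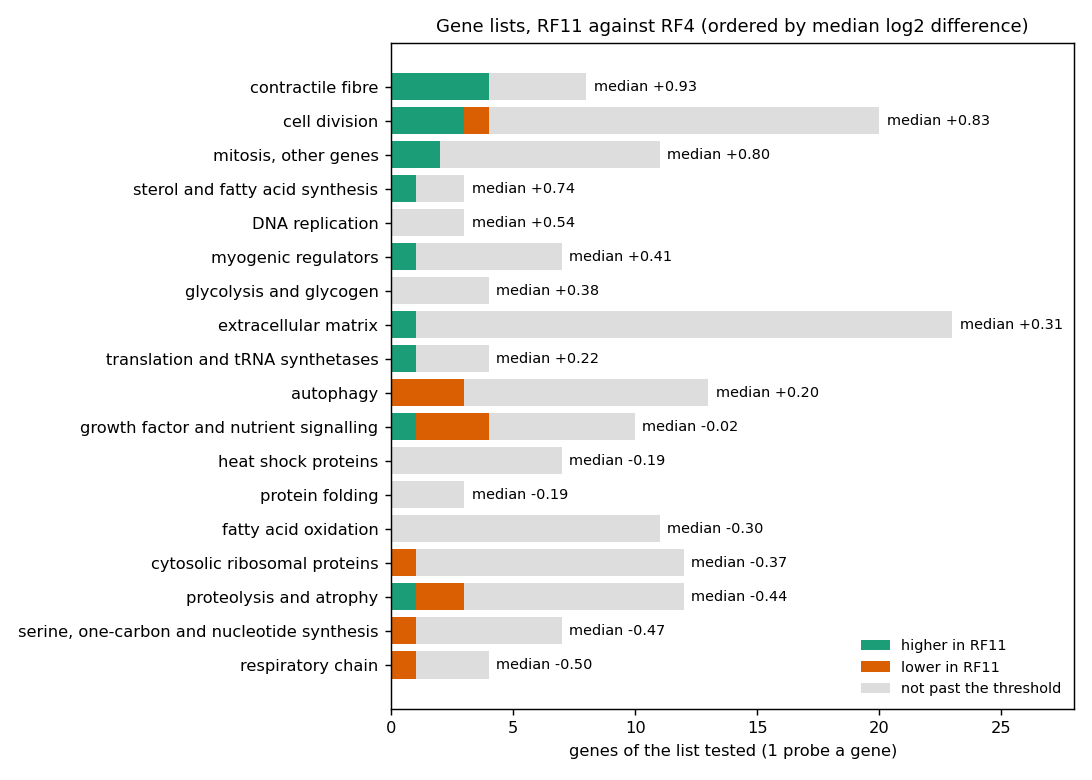
Number of measured genes of each list (1 probe a gene, lists of 3 or more, without the marker lists) that were higher, lower or not past the threshold in RF11 against RF4, with the median log2 difference of the list. Among the lists drawn, contractile fibre genes have the largest median, 0.93, with 4 of 8 called.

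Of the called named probes, 2 were well above background in only 1 group, and so passed the filter on dim probes through that group alone. TMPRSS5, a membrane-bound serine protease, was not well above background on any RF4 array and well above it on 4 RF11 arrays, which makes it at least 2.64-fold higher in RF11 (adjusted p = 0.0152, and 0.051 without RF11-2). The bound sets the mean of RF11 against, for each RF4 array, the higher of the probe's own signal and the lowest signal well above background. A dim second probe of CTPS, whose brighter probe was above background in both groups, was well above background on 4 RF4 arrays and on no RF11 array, which makes it at least 2.06-fold lower in RF11 (adjusted p = 0.0302), and its call was lost without RF11-1, RF11-4, RF11-6, RF4-3, RF4-4, RF4-5 or RF4-7 (up to 0.083).

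Of the 698 called probes, 541 had no gene name, since few of the tested probes are named. Among the 895 named probes 157 were called (17.5%), against 2.12% of all 32920, so a probe without a name was called less often. The largest fall was of the probe CUST_8543_PI425536763, from 1.68, 2.17, 3.32, 3.56 and 3.85 in RF4 to −1.45, −1.27, −0.79, −0.51 and 1.45 in RF11 (−3.43 ± 0.75, adjusted p = 0.018, and 0.051 without RF4-3). The largest rise on such a probe, with no overlap, was of CUST_3963_PI425536763, from −1.63, −0.44, −0.24, −0.13 and 0.44 to 2.00, 2.34, 2.46, 2.53 and 2.60 (2.79 ± 0.41, adjusted p = 0.00134).

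The direction of change between days 4 and 11 was set beside that of RF36 against F0, whose means share no fish with it. All contrasts came from the same model and share the spread of each probe. A probe with a small spread is thus more readily called in each of them, which raises the shared counts. Of the 427 probes higher in RF11 than in RF4, 313 (73.3%) were also higher in RF36 than in F0, where 19.0% of all tested probes were, and 17 (3.98%) were lower. These 313 are 5.00% of the probes higher in RF36. Of the 271 lower probes, 144 (53.1%) were also lower in RF36 than in F0, where 14.2% of all probes were, and 18 (6.64%) were higher. The 144 are 3.09% of the probes lower in RF36. Against C0 and F0, 232 of the 427 (54.3%) were higher in C0 than in F0, beside 9.33% of all probes, and 114 of the 271 (42.1%) were lower, beside 11.7%. Probes that rose in this week thus mostly differed in the same direction between long-refed or control-fed and fasted trout, and C0 also differs from F0 in its tank.

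Some named genes had their lowest or highest mean at day 4, and they did not all follow the direction of RF36 against F0. EIF4EBP3L and TRIM63 had their lowest mean at RF4 and went against it. They fell between F0 and RF36 (by 2.07 and 1.41 on the log2 scale) and rose between RF4 and RF11. PIM1 had its highest mean at RF4, 2.94, beside 1.84 in F0 (RF4 against F0 was not called, adjusted p = 0.0822) and −0.26 in RF36. MDP1 likewise had its highest mean at RF4, 0.05, which was 1.05 above F0 (adjusted p = 0.0302), beside −2.33 in RF36. These 4 genes were called on the same RF4 fish. An extreme mean at RF4, or a contrast of RF4 with F0, is thus no independent support. RF36 was below F0 in all 4 (adjusted p of at most 0.00786). PIM1 and MDP1, which also fell between RF4 and RF11, thus followed that direction.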

How the data were processed

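RNA from the muscle of single fish, carrying the dye Cy3, was read on Agilent arrays of 1 colour. Per the labels the scanner software was Agilent Feature Extraction 10.7.3.1. The intensity used here is the processed signal that the authors deposited, from which the software has removed background. The authors' own normalised values, made in GeneSpring and also deposited, are on the log2 scale and equal the log2 signal plus a constant for each array, with a median of 6.09 on every array. For normexp (offset 50), the deposited median intensity was taken for the spots and for the background around them.

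Control spots and 145 outlier spots were left out. Spots of a probe were averaged as log2 values, from which the 75th percentile of the array was taken away. Of 60195 probes, 137 with a missing value were dropped, and no spot was saturated. Probes well above background on 4 or more arrays of RF4 or RF11 were tested with limma 3.58.1 in R 4.3.3, with 1 mean per feeding group, all 23 arrays in the model and a two-sided moderated contrast of RF11 with RF4. The model was also run on simulated data with independent normal noise for each probe. Those data held no slide effects or outlying fish, so the run does not bear on these. Python 3.11.15, pandas 2.3.3, numpy 2.4.6 and matplotlib 3.10.9 made the other tables and the plots. The number of arrays limits the precision, and the p-values measure the spread between fish. They do not cover differences between tanks or sampling days. RF4 and RF11 came from the same tank, each was sampled on its own day, and no control fish were sampled on those days.

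A gene with several probes is given by the probe with the highest mean over RF4 and RF11. The text names the 12 strongest rises and the 12 strongest falls among called named probes whose groups do not overlap and which were well above background on 4 arrays of both groups, up to 6 called members of each of 22 gene lists and 9 marker lists (or the 3 brightest where none was called), up to 3 called probes each way that were below background throughout 1 group, and genes that the study's Results name. Not all of these are described singly, and some are not reported here. Other genes were chosen after their values were seen. The members, lists and tests were chosen with earlier results of these data known. The alternatives were other scalings, background corrections, filters, models, thresholds and the omission of each fish. The heat map file was held only in part (1252 probes). Gene ontology, body weights and sequences were not analysed here.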

Additional observations from a re-analysis of the deposited data

Results flagged for a closer look

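In 8 of 148 groups of 5 fish (74 named genes, RF4 and RF11 each), 1 fish lay far from the other 4, by a gap of more than the critical share of the group's range in Dixon's test. Chance flags about 1 in 20 groups. In ACT42A, RF4-2 was the lowest RF4 fish at 1.84 beside 2.41 to 2.57 in the others (gap over range 0.782), and RF11-5 the highest RF11 fish at 4.29 beside 3.65 to 3.82 (0.734). For MKRN1, RF4-4 was the highest RF4 fish at 1.83 beside 0.70 to 0.93 (0.800). In MDP1, RF11-6 was the lowest at −1.71 beside −1.29 to −1.11 (0.712), and in SC5D, RF11-5 was the highest at 5.34 beside 4.61 to 4.82 (0.714). PA2G4, a growth-related binding protein of the ribosome biogenesis list, was not called, with RF4-3 at 2.40 beside 1.10 to 1.30 (0.847). The brighter probe of CROT, which moves fatty acids out of peroxisomes as carnitine esters, was not called either (its other probe was lower, −1.06, adjusted p = 0.0394), with RF4-2 at 2.08 beside 3.58 to 3.79 (0.880). MYF6 had RF4-3 at −0.77 beside 0.05 to 0.26 (0.799). The part of these fish in the results was not tested beyond leaving each out.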

How the results depend on the processing

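The count of probes called (698, of which 427 were higher and 271 lower) was within 1.5 times of that with quantile normalization (807), a filter that asks for all 10 arrays above background (825), the slide as a block (714), only RF4 and RF11 in the model (938) and an unmoderated ANOVA contrast (677). It was 213 (163 higher, 50 lower) with arrays scaled to their median and 214 (163 and 51) with the authors' values, whose array medians are alike too, so that 76.5 and 76.2% of calls were higher instead of 61.2%. It was 257 (168 and 89) without a filter on dim probes, 1107 (613 and 494, or 55.4% higher) with normexp, 1086 (612 and 474) without C0-1, 142 (95 and 47) at adjusted p under 0.01 and 345 (207 and 138) with at least 2-fold. With only RF4 and RF11 and the slide as a block, a setting added after the data were seen, it was 415 (274 and 141). Leaving out 1 fish of RF4 or RF11 gave 301 to 605 calls (186 to 362 higher, 112 to 277 lower). The causes were not tested. The scan splits the arrays as the slide does and was not run apart.

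With the replicate number as a block, 812 probes were called (504 higher and 308 lower), including all 698. The fish numbers 2, 4 and 5 are shared by RF4 and RF11, and the deviations of same-numbered fish correlated at −0.08, 0.03 and 0.25, so the numbers do not pair the fish. The block ended no call among the named genes.

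Of the 44 called named genes, none changed sign, 27 kept the call without each fish and 21 in each other alternative that tested them. Scaling to the array median lost 17, the authors' values 16, the unfiltered fit 16 and only RF4 and RF11 with the slide as a block 15.

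The counts of list members called are small, and their alternatives, other than that of all probes, were added after the data were seen. With all probes of a list in place of 1 per gene, 7 of cell division, 2 of extracellular matrix, 9 of contractile fibre, 2 of cytosolic ribosomal proteins, 1 of fatty acid oxidation and 2 of serine, one-carbon and nucleotide synthesis were called. With arrays scaled to their median, and likewise with the authors' values, 2 of cell division, 1 of other mitosis, 1 of proteolysis and 0 of extracellular matrix, autophagy, sterol synthesis and myogenic genes were called. Without a filter the counts were 2 of cell division, 1 of other mitosis, 1 of autophagy and 0 of extracellular matrix, proteolysis, sterol synthesis and myogenic genes. With normexp they were 9 of cell division, 5 of other mitosis, 5 of autophagy, 2 each of extracellular matrix, ribosomal protein, respiratory chain and sterol synthesis and 1 each of glycolysis and heat shock. With only RF4 and RF11 they were 9 of cell division, 4 of other mitosis, 2 each of respiratory chain and sterol synthesis and 1 of glycolysis, and with the slide as a block in addition 2 of growth signalling and 0 of extracellular matrix, other mitosis, ribosomal protein and myogenic genes. With all 10 arrays above background they were 2 of extracellular matrix and 1 of other mitosis. With quantile normalization they were 7 of cell division, 3 of extracellular matrix, 2 each of translation, ribosomal protein, respiratory chain, sterol synthesis and heat shock and 1 each of protein folding and DNA replication. With the slide as a block alone they were 4 of extracellular matrix and 2 of ribosomal proteins, and with the ANOVA 2 of ribosomal proteins, 1 each of other mitosis, protein folding and heat shock and 0 of extracellular matrix. Without single fish, C0-1 included, cell division ranged from 2 to 4, other mitosis from 1 to 3, extracellular matrix from 0 to 4, autophagy from 1 to 3, proteolysis from 0 to 3, sterol synthesis and heat shock from 0 to 2, respiratory chain and ribosomal proteins from 1 to 2, and myogenic genes and protein folding from 0 to 1. Contractile fibre kept 3 or 4.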

Other observations

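Genes with several probes that all passed the test give a reading that does not rest on 1 probe. The genes below were chosen after their values were seen. The probes of a gene were read in the same fish, so their agreement is no independent support. Of 158 named genes with 2 or more probes, 39 had a called probe, and in 14 of these every probe was called in 1 direction. No gene had probes called in both directions. Reticulon-1 (RTN1), a protein of the endoplasmic reticulum, rose on its 3 probes by 0.85, 1.19 and 1.29. The probe that rose least was not called without RF11-4, RF11-5, RF11-6, RF4-2, RF4-4 or RF4-7 (adjusted p up to 0.062), and the other 2 kept their call without each fish. SH3BGR, a small protein of striated muscle, rose on its 3 probes by 1.12 to 1.30, of which 2 were not called without RF11-2, RF4-2 or RF4-3 (adjusted p up to 0.058). The actin capping subunit CAPZA1, which closes the barbed end of the thin filament, rose on both probes by 1.09 and 1.31 and kept both calls. Betaine-homocysteine methyltransferases, which remake methionine from homocysteine, rose on both named probes (BHMT 1.17 ± 0.23, BHMT2 1.27 ± 0.22) and kept both calls.

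TBRG4, a mitochondrial RNA-binding protein, fell on its 3 probes, by 0.96, 0.86 and 0.74 on the log2 scale, and 1 of them was not called without RF11-2, RF11-6, RF4-2 or RF4-3 (adjusted p up to 0.062). ENOSF1, named after a human enolase-like enzyme, fell on both probes, by 1.25 and 1.08, and kept both calls. CNP-1-2, a trout C-type natriuretic peptide, was called higher (adjusted p = 0.0134), from −2.95, −2.25, −1.87, −1.28 and −0.44 in RF4 to 0.45, 0.46, 0.73, 0.75 and 0.98 in RF11, though 3 RF4 arrays alone had it well above background, and it passed the filter on dim probes through RF11 alone. Its mean was −1.73 in F0 and 1.88 in RF36.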
